A study of Oncorhynchus mykiss with 15 samples.

Results

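Liver transcripts of rainbow trout (Oncorhynchus mykiss) in the group labelled H12h were compared with those in the group labelled H3h, 3 libraries a side, which are 6 of the 15 libraries of the series. The comparison of these groups was not chosen from measured values. Of 34965 genes in the table, 17502 passed a filter on mean level over all 15 libraries and were tested. The fish of all groups were 150 days old, and Trizol was used to take total RNA from snap-frozen liver. The series is described as a study of hypoxia, that is low oxygen in the water, of different durations, and the other 3 groups are N, H24h and R3h. The labels do not spell out N, H and R and give no strain, sex or oxygen level. They carry 12 h and 3 h for the groups compared and name no N group sampled at the same times, so duration of treatment, elapsed time and time of day cannot be told apart. No label states whether each library holds RNA of its own fish, and the p-values below therefore reflect differences among libraries that may be technical.

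Cells sense low oxygen through prolyl hydroxylases of the EGLN family and an asparagine hydroxylase, HIF1AN, which tag hypoxia-inducible factor (HIF) for breakdown or block its activity while oxygen is present. When oxygen falls, HIF is spared and drives genes of glycolysis, vessel growth, mitophagy and oxidative protein folding. It also drives some, but not all, of the hydroxylase genes, and these feed back on it. The liver is in addition the source of most plasma proteins and of glucose for other tissues, and it responds to cortisol and to nutrient shortage through other regulators. Trout carry many duplicated genes, so several copies of a gene can share a name, and gene identifiers are given to tell copies apart.

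Total counts were 60458971, 46656840 and 65545661 in the H12h libraries and 65269945, 53529890 and 70416280 in the H3h libraries. H12h replicate 3 stood apart from the other H12h libraries. Its log expression correlated at 0.888 with replicate 1 and 0.852 with replicate 2, which correlated at 0.93 with each other, and at 0.901 with H3h replicate 3. R3h replicate 3, which enters the fit but not the comparison, correlated at 0.719 on average with the other libraries of its group. Defining markers of hepatocytes were abundant in every library, with a summed level of 102000 to 110000 FPKM (fragments scaled to gene length and library size) in H12h libraries and 63700 to 87700 FPKM in H3h libraries. Markers of exocrine pancreas summed to at most 0.57 FPKM in H12h libraries and 4.09 FPKM in H3h libraries, and 7 of 14 were at 0 in all 6 libraries.

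In the test across all genes, 3 of 17502 genes differed between H12h and H3h at an adjusted p below 0.05 (0.0171%), and all 3 were higher in H12h: ero1a, tpi1b and apln. All 3 are known from mammals as genes that low oxygen raises. A further 43 genes lay between 0.05 and 0.10, so that 46 genes were below 0.10, 41 of them higher in H12h and 5 lower. At an unadjusted p below 0.05 there were 2795 genes (16%), 1544 higher in H12h (8.82%) and 1251 lower (7.15%). The median log2 fold change of all genes tested was -0.0344 and the quartiles were -0.482 and 0.473.

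The deposited FPKM values and the fitted fold changes sit on different scales. Fold changes were fitted after TMM scaling, which sets the typical gene near 0, whereas FPKM is scaled to library size only. On the FPKM scale the median gene lay 0.59 lower in H12h on the log2 scale, and 78.2% of genes had a lower mean FPKM there. In FPKM, the 3 H12h libraries all lay above the 3 H3h libraries for 813 genes (4.65%) and all below them for 6198 genes (35.4%), together 40.1%. After TMM scaling the numbers were 2467 (14.1%) and 2640 (15.1%), together 29.2%. Fold changes below are therefore relative to the typical gene, and FPKM values of a gene that kept pace with the typical gene are lower in H12h.

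Ero1a (110505225, chromosome 25, 41254183 to 41271397), an endoplasmic reticulum oxidase that makes disulfide bonds in secreted proteins, was at 7.85, 6.26 and 1.79 FPKM in H12h libraries and at 0.19, 0.28 and 0.11 FPKM in H3h libraries. The lowest H12h library, replicate 3, still lay above every H3h library. Ero1a rose by 5.37 ± 0.75 on the log2 scale (approximate SE, n = 3 libraries each) with an adjusted p of 0.034. Behind these values stood 1392, 855 and 345 counts in H12h and 38, 44 and 23 counts in H3h.

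Tpi1b (110517847, chromosome 3, 33990921 to 33995689) encodes triosephosphate isomerase, a glycolytic enzyme. It was at 72.24, 65.48 and 39.13 FPKM in H12h libraries and at 8.16, 12.32 and 10.03 FPKM in H3h libraries, without overlap, and rose by 3.11 ± 0.43 with an adjusted p of 0.034. The second tpi1b copy (110489325) was at 80.52, 55.35 and 48.13 FPKM in H12h and at 27.25, 47.66 and 46.57 FPKM in H3h. Its lowest H12h value was just above its highest H3h value, and its log2 fold change was 1.15 ± 0.4 with an adjusted p of 0.21. Whether the copies differ in their response was not tested.

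Apln (110505164, chromosome 25, 36039032 to 36069861), which carries no name in the deposited table and takes its symbol from RefSeq, encodes apelin, a secreted peptide that acts on vessels and the heart. It was at 2.58, 4.6 and 2.01 FPKM in H12h libraries and at 0.61, 0.46 and 0.35 FPKM in H3h libraries. The groups did not overlap, and apln rose by 3.33 ± 0.47 with an adjusted p of 0.034.

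**Figure D1:**
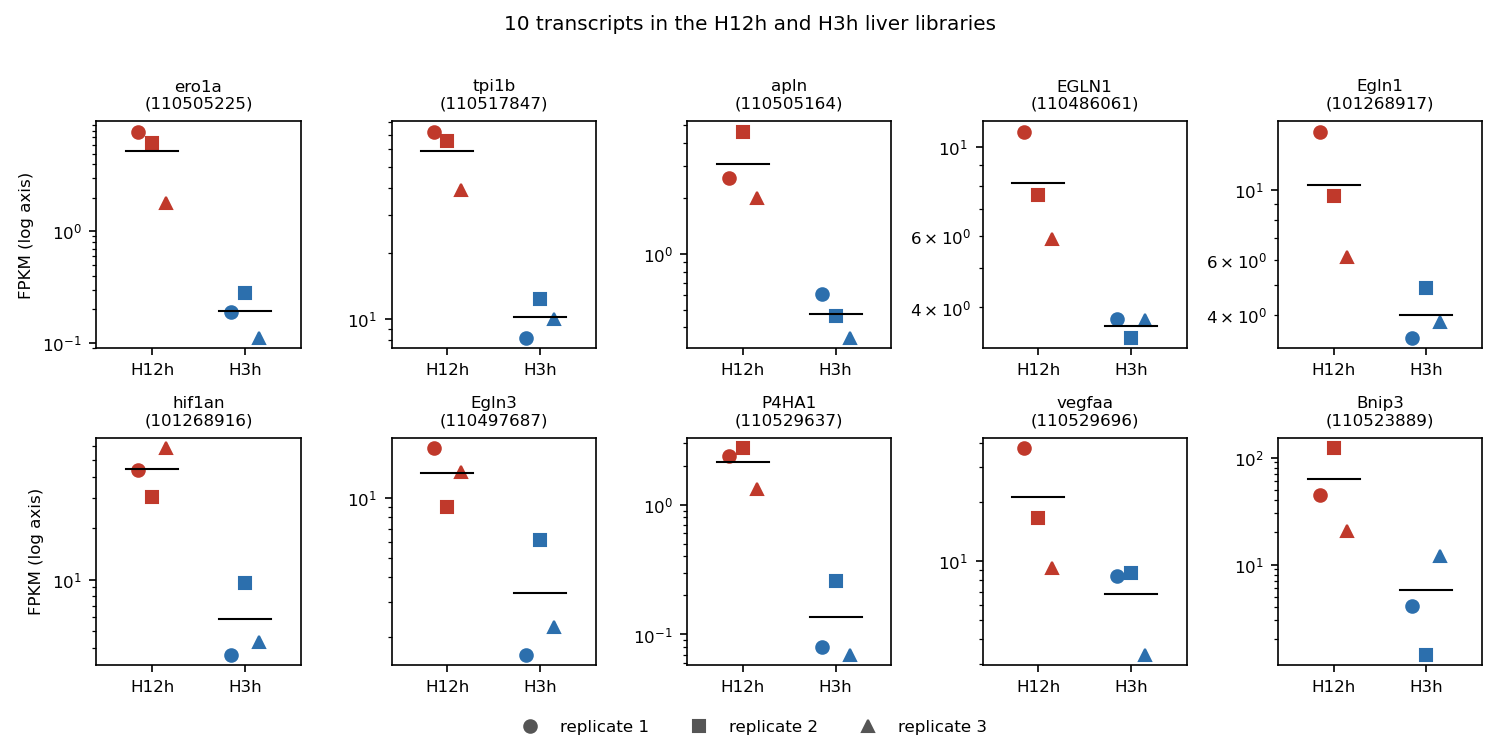
FPKM on log axes of 10 transcripts in each of the 3 H12h libraries (red, left) and the 3 H3h libraries (blue, right), with marker shapes for the replicates and a black line at the group mean. The H12h values of ero1a (1.79 to 7.85 FPKM) and hif1an (30.41 to 58.62 FPKM) lie above all H3h values, and H12h replicate 3 is the lowest H12h library for ero1a, tpi1b, apln, P4HA1, vegfaa, Bnip3 and both EGLN1 copies but the highest for hif1an.

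Among 73 tested HIF targets, 63 had a positive and 10 a negative fold change, and the median was 1.02 against -0.0344 for all genes tested. Of them, 2 were called, ero1a and apln, against 0.0171% of all genes. At an unadjusted p below 0.05, 36 were higher in H12h (49.3%, against 8.82% of all genes) and 2 lower. On the FPKM scale, with no scaling beyond library size, the median was 0.44.

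Of the oxygen-sensing hydroxylases, 2 EGLN1 copies and hif1an came close to the threshold without passing it, and the Egln3 and EGLN2 copies lay further from it. EGLN1 (110486061) was at 10.88, 7.61 and 5.91 FPKM in H12h libraries and at 3.74, 3.36 and 3.72 FPKM in H3h libraries, with no overlap, a log2 fold change of 1.76 ± 0.3 and an adjusted p of 0.07. The second copy (Egln1, 101268917) had 15.27, 9.57 and 6.1 FPKM in H12h and 3.38, 4.86 and 3.8 FPKM in H3h, again with no overlap, and a log2 fold change of 1.93 ± 0.39 (adjusted p = 0.088). Hif1an (101268916), the asparagine hydroxylase, was at 43.58, 30.41 and 58.62 FPKM in H12h libraries and at 3.64, 9.61 and 4.31 FPKM in H3h libraries. Its highest H12h value was in replicate 3, its groups did not overlap, and its log2 fold change was 3.39 ± 0.66 (adjusted p = 0.088). Both Egln3 copies had H12h values above all H3h values, with log2 fold changes of 2.48 ± 0.77 (110497687, adjusted p = 0.17) and 2.62 ± 0.74 (110505778, adjusted p = 0.15). The EGLN2 copies gave 1.32 ± 0.44 (110507058, adjusted p = 0.2) and 0.01 ± 0.55 (110503496, adjusted p = 1). P4HA1 (110529637), the collagen prolyl hydroxylase subunit, was at 2.37, 2.72 and 1.33 FPKM in H12h and at 0.08, 0.26 and 0.07 FPKM in H3h, without overlap, with a log2 fold change of 4.54 ± 0.9 (adjusted p = 0.088). Another P4HA1 copy (110499022) had a smaller fold change. Without R3h replicate 3 in the edgeR fit it gave 1.56 (adjusted p = 0.16), against 4.59 (0.036) for 110529637. These hydroxylase genes did not pass the test with all 15 libraries in the fit. Egln3 110505778, both EGLN2 copies and the P4HA1 copies were named after their values had been seen. So were tpi1b 110489325, the further vegfaa and BNIP3 copies, epo, cited2, ndrg1 and miox.

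Among secreted HIF targets, vegfaa (110529696), the vessel growth factor, had 37.43, 16.54 and 9.24 FPKM in H12h libraries and 8.42, 8.72 and 3.35 FPKM in H3h libraries. The lowest H12h value, in replicate 3, was just above the highest H3h value, and the log2 fold change was 2.23 ± 0.51 (adjusted p = 0.11). The other vegfaa copies had log2 fold changes of 1.28, 1.76 and 1.0 with adjusted p-values of 0.13 to 0.2. Erythropoietin, the hormone of red cell production, was low. Its first copy (epo, 110500519) was at 2.76, 4.26 and 0.83 FPKM in H12h and at 0.48, 0.88 and 0.32 FPKM in H3h, with replicate 3 inside the H3h range in FPKM but above it after TMM scaling, and a log2 fold change of 2.83 ± 0.85 (adjusted p = 0.17). Bnip3 (110523889), a receptor that marks mitochondria for removal, was at 44.5, 122.17 and 20.6 FPKM in H12h and at 4.06, 1.44 and 11.9 FPKM in H3h. Its groups did not overlap, and its log2 fold change was 4.1 ± 0.98 (adjusted p = 0.12). Bnip3l (110523659), its relative, gave 2.39 ± 0.54 (adjusted p = 0.11). Further BNIP3 copies gave 0.72 (100301704, adjusted p = 0.27), 2.39 (110532948, adjusted p = 0.18) and 2.49 (110531588, adjusted p = 0.29). Cited2 (110522239), which competes with HIF for its coactivator, was at 1.55, 1.64 and 2.36 FPKM in H12h and at 0.16, 0.04 and 0.2 FPKM in H3h, with a log2 fold change of 4.29 ± 0.82 (adjusted p = 0.083). The more abundant cited2 copy (110529621) gave -0.15 ± 0.38 (adjusted p = 0.88).

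The HIF subunits and partners as a list lay near the typical gene. Of 17 tested subunits and partners, 12 had a negative fold change, and the median was -0.15 against -0.0344 for all genes tested. Of all 17502 genes, 8391 had a positive fold change. None of the list was called, and 1 was lower at an unadjusted p below 0.05 (5.88%, against 7.15% of all genes). That was hif1a (100135944), at 6.74, 6.62 and 9.38 FPKM in H12h libraries and at 29.33, 14.65 and 15.81 FPKM in H3h libraries. The groups did not overlap in FPKM or after TMM scaling, and the log2 fold change was -0.81 ± 0.3 (adjusted p = 0.23). Epas1 (110499310), the HIF-2 alpha gene, gave -1.35 ± 0.65 (adjusted p = 0.33) with overlapping groups.

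In glycolysis, 23 of 32 tested genes had a positive fold change and the median was 0.59, which on the FPKM scale turned to -0.01. Tpi1b was the member called. At an unadjusted p below 0.05, 6 were higher (18.8%, against 8.82% of all genes) and 2 lower (6.25%, against 7.15%). The member with the next smallest p was lower in H12h. PGK (110533595), phosphoglycerate kinase, was at 14.4, 10.73 and 17.82 FPKM in H12h and at 43.2, 37.9 and 42 FPKM in H3h, with no overlap and a log2 fold change of -0.98 ± 0.28 (adjusted p = 0.15). PGAM1 (110493407), phosphoglycerate mutase, gave 0.93 ± 0.31 (adjusted p = 0.2).

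Genes of glucose output and amino acid use had positive medians without any call. Gluconeogenesis had a median of 0.75 over 28 tested genes. At an unadjusted p below 0.05, 10 of them were higher (35.7%, against 8.82% of all genes) and 2 lower. Its mean log2 level after TMM scaling, relative to the H3h mean, was 0.97, 0.83 and 0.15 in H12h replicates 1, 2 and 3. Replicate 3 lay inside the H3h range of -0.29 to 0.16. Amino acid and glucose transporters had a median of 0.86 over 39 genes, with 13 higher (33.3%) and 2 lower at an unadjusted p below 0.05. Amino acid catabolism as a list had a median of 0.54 over 76 genes, which turned to -0.01 on the FPKM scale. Slc7a1 (110504989), an importer of cationic amino acids, was at 19.62, 24.26 and 8.46 FPKM in H12h and at 6.99, 5.1 and 7.93 FPKM in H3h (2.03 ± 0.45, adjusted p = 0.11). The key gluconeogenic genes PCK1 (110493880) and G6PC (110499065) gave 1.47 ± 1.13 and 0.65 ± 0.51 with adjusted p-values of 0.55 each.

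**Figure D2:**
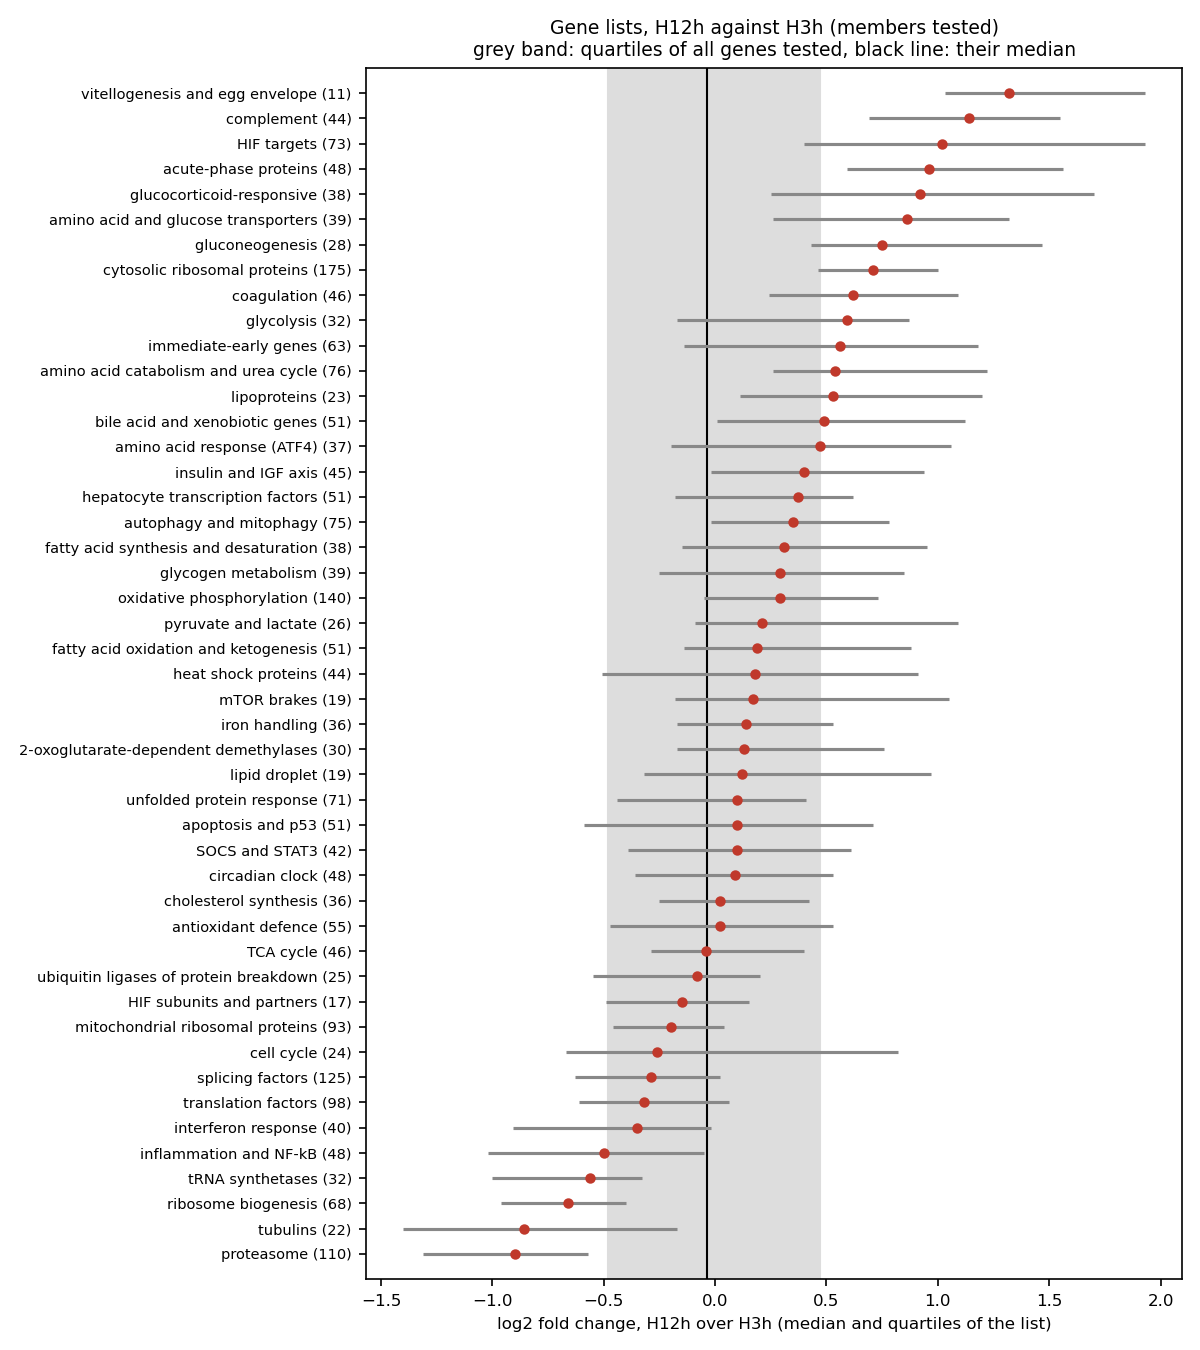
Median (red point) and quartiles (grey line) of the fitted log2 fold change, H12h over H3h, for each gene list, with the number of members tested in brackets; the grey band and black line are the quartiles and median of all genes tested. HIF targets (1.02), complement (1.14) and ribosomal proteins (0.71) lie on the right and proteasome (-0.9) and tubulins (-0.86) on the left; with no scaling beyond library size every list shifts left with the typical gene, and lists such as glycolysis then have a median of -0.01.

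The result depended strongly on H12h replicate 3 and on R3h replicate 3. Without R3h replicate 3 in the fit, 163 genes passed, 134 higher and 29 lower, although that library belongs to neither group. Without H12h replicate 3, 255 genes passed, 191 higher and 64 lower. The sets shared 76 genes, which is 46.6% of the first and 29.8% of the second. Ero1a, tpi1b and apln passed in both. Leaving out either of H12h replicates 1 and 2, or any H3h library, left 0 genes called. At an unadjusted p below 0.05 there were still 1895 genes without H12h replicate 1, 1479 without H12h replicate 2, and 1676, 2216 and 2451 without H3h replicates 1, 2 and 3. DESeq2, run on all 15 libraries, called 802.

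Without R3h replicate 3, the genes that passed included 9 HIF targets, all higher. Among them were EGLN1 (110486061, adjusted p = 0.03), Egln1 (101268917, 0.039), P4HA1 (110529637, 0.036), BNIP3 (110532948, 0.039), ndrg1 (110496659, 0.036), apln (0.03) and ero1a (0.029). Miox (110496439, 0.03), which starts inositol breakdown with molecular oxygen, passed as well. Miox was at 75.77, 28.32 and 79.46 FPKM in H12h libraries and at 3.89, 2.31 and 6.84 FPKM in H3h libraries, without overlap. Of all 17502 genes, that fit passed 134 as higher and 29 as lower. Besides 9 of 73 HIF targets, it passed 21 of 175 cytosolic ribosomal proteins and 5 of 140 oxidative phosphorylation genes, all higher. It also passed 3 of 22 tubulins and 1 of 110 proteasome genes, all lower. Miox overlaps lmf2 on the opposite strand, and the sources used here do not say whether counting used strand.

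Stress and hormone genes separated H12h replicate 3 from the other H12h libraries. Ddit4 (110531799), which restrains mTOR signalling, was at 271.08, 496.62 and 1.96 FPKM in H12h libraries and at 14.45, 39.4 and 36.2 FPKM in H3h libraries. Replicates 1 and 2 lay far above all H3h libraries and replicate 3 below all of them, and the log2 fold change was 3.74 ± 1.23 (adjusted p = 0.19). FOSB (110507403), an immediate-early transcription factor, was at 13.73, 18.2 and 0.12 FPKM in H12h and at 0.05, 0.07 and 0.01 FPKM in H3h, with a log2 fold change of 8.49 ± 1.65 (adjusted p = 0.095) that rests on few H3h counts (8, 10 and 3). Replicate 3 was far below the other H12h libraries. IGFBP1 (100136312), a liver-secreted binder of insulin-like growth factors, was at 148.24, 439.32 and 8.18 FPKM in H12h and at 20.34, 15.35 and 56.41 FPKM in H3h, with replicate 3 again the lowest of all 6 (3.39 ± 1.35, adjusted p = 0.25). PCK1 was at 617.37, 800.78 and 11.49 FPKM in H12h and at 328.8, 241.08 and 267.09 FPKM in H3h.

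The same order held for the cortisol-responsive genes Klf9 (110525414), with 87.26, 106.47 and 6.09 FPKM in H12h and 50.63, 64.17 and 61.61 FPKM in H3h, and DUSP1 (110504465), with 105.94, 76.94 and 2.41 FPKM in H12h and 71.67, 38.61 and 24.91 FPKM in H3h. Neither came near the threshold (adjusted p = 0.65 and 0.62). For Tsc22d3 (110504506) replicate 3 was also below every H3h library, at 10.09 FPKM. The heat shock gene hsp70 (100137015) was at 138.41, 48.28 and 6.45 FPKM in H12h and at 19.67, 3.81 and 7.63 FPKM in H3h (3.34 ± 0.89, adjusted p = 0.13). The heat shock list had a median of only 0.18 over 44 tested genes, 20 of them negative. The list of mTOR brakes had a median of 0.17 over 19, 7 of them negative. With no scaling beyond library size these medians were -0.37 and -0.43. Fos (110522641) and junb (110493449) overlapped widely, with log2 fold changes of -0.23 ± 1.33 and 0.17 ± 0.87.

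As a list, the glucocorticoid-responsive genes averaged 1.49, 1.64 and -1.14 in H12h replicates 1, 2 and 3, relative to the mean of the H3h libraries, on the log2 scale of TMM-scaled CPM (counts scaled to library size). The H3h libraries themselves ranged from -0.16 to 0.11. Immediate-early genes averaged 1.48, 0.74 and -1.38 in H12h libraries and 0.76, -0.23 and -0.53 in H3h libraries. HIF targets averaged 1.52, 1.39 and 0.47 in H12h libraries, all above the H3h range of -0.1 to 0.15. The median fold change was 0.92 for the glucocorticoid list, which turned to -0.18 in limma on log2(FPKM + 1), and 0.56 for the immediate-early list, which turned to -0.03 with no scaling beyond library size; neither list held a called gene.

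Without H12h replicate 3, several of these genes passed the test: ddit4 (4.32, adjusted p = 0.024), FOSB 110507403 (9.07, 0.0039), hsp70 100137015 (3.89, 0.025), CREM (110530248, 3.31, 0.0028), vegfaa 110529696 (2.62, 0.025) and Bnip3 110523889 (4.56, 0.042). IGFBP1 (3.96, 0.11) and Klf9 (1.38, 0.23) did not. Of the 191 genes higher in that fit, the library left out lay above all H3h libraries for 120, within their range for 43 and below all of them for 28, on TMM-scaled FPKM. The same H3h libraries had served to select these genes. The share over all genes was not computed for this library, so the counts cannot be judged against it. CREM, a cAMP-responsive transcription factor, was at 12.76, 15.16 and 3.13 FPKM in H12h and at 2.36, 2.48 and 1.92 FPKM in H3h, so replicate 3 lay above the H3h range by less than the other H12h libraries did.

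**Figure D3:**
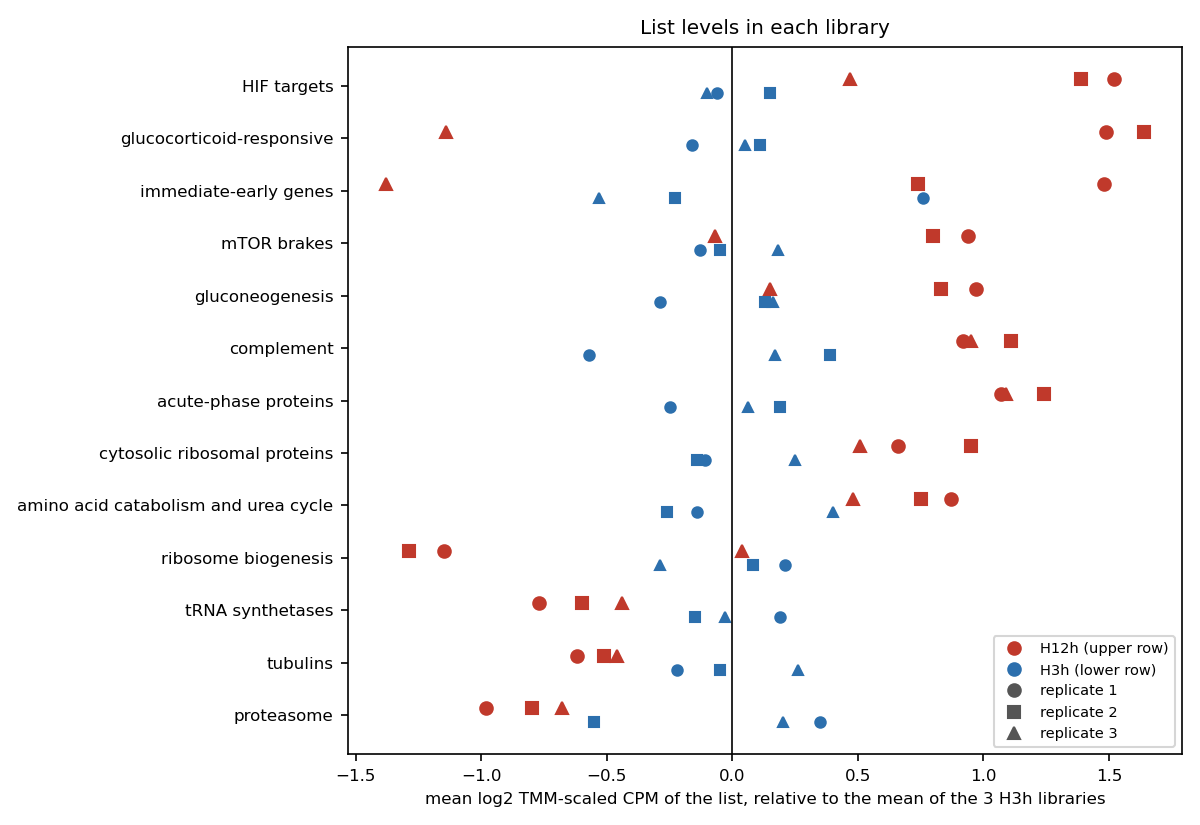
Mean log2 TMM-scaled CPM (counts scaled to library size) of 13 gene lists in each library, relative to the mean of the 3 H3h libraries, with H12h in red on the upper row and H3h in blue on the lower row of each list and marker shapes for the replicates. H12h replicate 3 lies at -1.14 for glucocorticoid-responsive and -1.38 for immediate-early genes while H12h replicates 1 and 2 lie at 0.74 or above, whereas for complement (0.92, 1.11 and 0.95) the 3 H12h libraries lie together.

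Transcripts of secreted plasma proteins were at higher levels in all 3 H12h libraries. Of 44 complement genes, 40 had a positive fold change, the median was 1.14, and 19 were higher and 3 lower at an unadjusted p below 0.05 (43.2% higher, against 8.82% of all genes). Acute-phase proteins had a median of 0.96 (45 of 48 positive) and coagulation factors 0.62 (38 of 46 positive). No member of these lists was called, and all 3 medians were positive with no scaling beyond library size too (0.65, 0.35 and 0.04).

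CRP (110491696), a pentraxin of the acute phase, was at 262.43, 287.94 and 284.75 FPKM in H12h libraries and at 132.94, 167.2 and 112.81 FPKM in H3h libraries, without overlap (1.57 ± 0.32, adjusted p = 0.092). APCS (100136775), a second pentraxin, was at 2103.94, 2736.9 and 2479.38 FPKM in H12h and at 302.46, 188.23 and 349.71 FPKM in H3h (3.71 ± 0.94, adjusted p = 0.13). Complement c3 (100136952) was at 1557.92, 1092.76 and 1538.65 FPKM in H12h and at 417.88, 638.34 and 592.39 FPKM in H3h (1.87 ± 0.52, adjusted p = 0.15). For each of these the 3 H12h libraries were close together, replicate 3 included. Hepatocyte markers as a whole, which share members such as albumin with these lists, had a positive fold change for 34 of 36 tested, a median of 1.07 and no call. In bulk tissue, more RNA per cell and more cells of a type cannot be told apart.

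Vitellogenesis and egg envelope genes, which fish liver makes under estrogen, had a median of 1.32 over 11 tested genes, and 10 were positive. At an unadjusted p below 0.05, 4 were higher (36.4%, against 8.82% of all genes). As a list they averaged 2.22, 0.8 and 0.08 in H12h libraries, relative to the H3h mean on the log2 scale of TMM-scaled CPM. The H3h libraries were at -0.04, 0.52 and -0.47, so H12h replicate 3 lay inside their range. ZP4 (110509198) was at 3.58, 2.1 and 1.64 FPKM in H12h and at 0.23, 0.31 and 0.38 FPKM in H3h (3.54 ± 0.64, adjusted p = 0.07), and a second ZP4 gene (100135906) was at 18.02, 25.01 and 15.3 FPKM in H12h and at 9.24, 6.5 and 6.92 FPKM in H3h (1.98 ± 0.48, adjusted p = 0.12). The groups did not overlap for either ZP4 gene. The vitellogenin gene vtg1 (110521861) was far from the threshold. Its log2 fold change was 1 without R3h replicate 3 in the edgeR fit (adjusted p = 0.83), and DESeq2 gave it an adjusted p of 0.92. In FPKM, 3 of the 11 genes had all H12h values above all H3h values (27.3%, against 4.65% of all genes). The labels do not give the sex of the fish.

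Cytosolic ribosomal proteins were the largest of the lists. Of 175 tested, 159 had a positive fold change, the median was 0.71, and 71 were higher and 1 lower at an unadjusted p below 0.05 (40.6% higher, against 8.82% of all genes). With no scaling beyond library size the median was 0.13. None was called. Rps23 (110527726) was at 205.64, 250.96 and 211.69 FPKM in H12h libraries and at 124.71, 111.01 and 97.12 FPKM in H3h libraries (1.59 ± 0.31, adjusted p = 0.088). Oxidative phosphorylation had a smaller median, 0.29 over 140 genes, which turned to -0.31 with no scaling beyond library size. COX5B (110526243), a subunit of cytochrome c oxidase, was at 59.48, 65.06 and 64.44 FPKM in H12h and at 27.88, 33.15 and 38.69 FPKM in H3h (1.48 ± 0.31, adjusted p = 0.11).

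On the lower side no gene was called by edgeR with all libraries (0%), against 1251 at an unadjusted p below 0.05 and 251 by DESeq2. The proteasome, which degrades ubiquitin-tagged proteins, had the lowest median of the 47 gene lists, which do not include the cell type markers. Of 110 tested genes, 101 had a negative fold change, the median was -0.9, and 37 were lower and 2 higher at an unadjusted p below 0.05 (33.6% lower, against 7.15% of all genes). Psmd1 (110530815), a base subunit of the regulatory cap, was at 11.66, 11.52 and 19.24 FPKM in H12h libraries and at 121.48, 56.77 and 72.67 FPKM in H3h libraries, without overlap (-1.99 ± 0.44, adjusted p = 0.11). Psmg2 (110487801), an assembly chaperone, was at 3.54, 3.42 and 7.2 FPKM in H12h and at 27.26, 9.14 and 27.27 FPKM in H3h (-1.62 ± 0.37, adjusted p = 0.11). H3h replicate 2 was the lowest H3h library for the list as a whole, at -0.55 relative to the H3h mean, while the H12h libraries were at -0.98, -0.8 and -0.68. Psmd1 overlaps htr2b on the opposite strand.

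Tubulins, the subunits of microtubules, had a median of -0.86 over 22 tested genes, 11 of them lower and 1 higher at an unadjusted p below 0.05 (50% lower, against 7.15% of all genes). TUBA1C (110528227) was at 6.89, 5.99 and 9.54 FPKM in H12h libraries and at 29.74, 30.57 and 27.8 FPKM in H3h libraries, without overlap (-1.44 ± 0.32, adjusted p = 0.11). Of 2 neighbouring TUBB4B genes, 110538666 was at 3.17, 1.89 and 3.76 FPKM in H12h and at 11.99, 8.09 and 20.91 FPKM in H3h (-1.69 ± 0.38, adjusted p = 0.11). The other, 110538667, gave -1.92 ± 0.45 (adjusted p = 0.11), and near-identical copies can share reads.

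The lists of tRNA synthetases, ribosome biogenesis, translation factors and splicing factors had negative medians. Of 32 tRNA synthetases 31 had a negative fold change (median -0.56), and of 68 ribosome biogenesis genes 64 (median -0.66). At an unadjusted p below 0.05, 7 tRNA synthetases were lower (21.9%, against 7.15% of all genes). Of the ribosome biogenesis genes 11 were lower (16.2%) and 1 higher. Translation factors had a median of -0.32 over 98 genes and splicing factors -0.29 over 125. At an unadjusted p below 0.05, 19 translation factors were lower (19.4%) and 7 higher (7.14%, against 8.82% of all genes). For splicing factors it was 18 lower (14.4%) and 3 higher (2.4%). The splicing factor with the smallest p, SRSF7 (110486080), was higher in H12h (2.02, adjusted p = 0.12). Hars (110504998), which charges histidine tRNA, was at 4.5, 4.26 and 7.92 FPKM in H12h libraries and at 27.62, 18.51 and 23.39 FPKM in H3h libraries (-1.52 ± 0.42, adjusted p = 0.14). For ribosome biogenesis the negative sign rested on H12h replicates 1 and 2, which averaged -1.15 and -1.29, while replicate 3 averaged 0.04, inside the H3h range of -0.29 to 0.21. The median of that list was -1.24 without H12h replicate 3, and NOB1 (110526880), which trims the small subunit RNA, then passed (-2.25, adjusted p = 0.038). With all libraries NOB1 was at 1.58, 1.48 and 5.49 FPKM in H12h and at 15.12, 11.02 and 9.05 FPKM in H3h (-1.55 ± 0.46, adjusted p = 0.17). The list member with the smallest p went the other way. DDX21 (110502722) was at 5.93, 7.3 and 4.74 FPKM in H12h and at 3.85, 2.47 and 3.07 FPKM in H3h (1.55, adjusted p = 0.12). Without H12h replicate 3 DDX21 passed as higher (1.78, adjusted p = 0.044). In that fit 1 of the 68 list members passed as higher and 5 as lower. Of all 17502 genes, it passed 191 as higher and 64 as lower.

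Among single genes named for the size of their p, Ggt5 (110537206), an enzyme of glutathione and leukotriene metabolism, was at 0.27, 0.2 and 0.41 FPKM in H12h libraries and at 16.07, 4.88 and 6.51 FPKM in H3h libraries, without overlap (-4.35 ± 0.72, adjusted p = 0.07). NFE2L2 (110527610), the Nrf2 gene of the antioxidant response, was at 0.12, 0.1 and 0.55 FPKM in H12h and at 3.31, 1.7 and 1.86 FPKM in H3h (-2.63 ± 0.52, adjusted p = 0.088). The antioxidant list as a whole had a median of 0.02 over 55 genes. Its member Gsr (110489011), which uses NADPH to reduce glutathione, gave -1.21 ± 0.32 (adjusted p = 0.13). The 15 lower genes named by rule also include samm50b, UBE2V1, ARF6, HMGB3, churc1, TTPA, OSBPL9 and ZDHHC6, with adjusted p-values from 0.09 to 0.12. The rule admitted only genes whose groups did not overlap in FPKM, as for 35.4% of all genes in this direction. After TMM scaling the groups of all 15 still did not overlap, which that selection favoured.

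On the higher side, Sult2b1 (110498876), a sterol sulfotransferase, was at 18.78, 45.3 and 65.89 FPKM in H12h libraries and at 8.57, 6.4 and 3.71 FPKM in H3h libraries, with replicate 3 the highest (3.35 ± 0.61, adjusted p = 0.07). Eif4ebp3l (110489099), a repressor of cap-dependent translation, was at 29.03, 23.72 and 26.63 FPKM in H12h and at 6.23, 6.94 and 10.68 FPKM in H3h (2.28 ± 0.44, adjusted p = 0.088). The groups of both were separate in FPKM, which the naming rule required. The others of the 15 named by rule, TRIM35, Pawr, the COX14 homolog (110528602), rsl24d1, POLD3, Slc29a2, ANKRD10 and SMIM11A, had log2 fold changes between 1.42 and 3.67 and adjusted p-values of 0.07 to 0.087. Pawr and the COX14 homolog each overlap another gene on the opposite strand.

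The inflammation and neutrophil lists had negative medians. The inflammation list had a median of -0.5 over 48 tested genes, 38 of them negative, and no call. At an unadjusted p below 0.05, 5 of its genes were lower (10.4%, near the 7.15% of all genes) and none higher. The neutrophil markers had a median of -1.17 over 11 tested genes, 9 of them negative. MPO (110532736), the granule peroxidase, was at 5.54, 1.34 and 5.33 FPKM in H12h libraries and at 36.8, 13.77 and 26.87 FPKM in H3h libraries, without overlap (-2.12 ± 0.68, adjusted p = 0.18). Summed over all 16 markers the groups overlapped, at 36200, 37500 and 16000 FPKM in H12h and 33900, 38600 and 36900 FPKM in H3h. Hepatocytes also make Lect2, which was among the planned markers, and a sum without it was not planned. Over the 14 markers other than Lect2, the level was 24, 27.3 and 31.2 FPKM in H12h and 171, 139 and 141 FPKM in H3h. The part of this difference in the inflammation list was not tested. Erythrocyte markers had a median of 1.26 over 29 tested genes, and their sums overlapped, at 418, 1030 and 1170 FPKM in H12h libraries and 252, 440 and 852 FPKM in H3h libraries. Macrophage markers also overlapped, at 228 to 459 FPKM in H12h and 234 to 408 FPKM in H3h.

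Other lists gave little separation. Cholesterol synthesis (median 0.02 over 36 genes), the TCA cycle (-0.04 over 46), the circadian clock (0.09 over 48) and the unfolded protein response (0.1 over 71) had medians close to that of all genes, and with no scaling beyond library size all of them lay below 0 with the typical gene. The endoplasmic reticulum chaperone hspa5 (100135840) gave -0.31 ± 0.6 (adjusted p = 0.84) and MYC (110493870) 0.13 ± 0.44 (adjusted p = 0.91). Single clock genes went both ways. Per1 (110509930) and CRY1 (110494045) gave -0.78 ± 0.47 and -0.42 ± 0.53 (adjusted p = 0.43 and 0.75). Another CRY1 copy (110522881) gave 1.62 (adjusted p = 0.14) and CLOCK (110533857) 1.78 (adjusted p = 0.11). Without H12h replicate 3, CRY1 110522881 and CLOCK passed (1.98 and 2.07, adjusted p = 0.04 and 0.036). The standard errors are wide, and a missed threshold does not show equal levels.

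In the 5 groups of the series the 3 called genes were at the following levels. Mean FPKM of ero1a (SD, n = 3 each) was 0.243 ± 0.0702 for N, 0.193 ± 0.085 for H3h, 5.3 ± 3.14 for H12h, 0.273 ± 0.182 for H24h and 0.557 ± 0.302 for R3h. Apln averaged 0.393 ± 0.104 FPKM (N), 0.473 ± 0.131 FPKM (H3h), 3.06 ± 1.36 FPKM (H12h), 0.837 ± 0.0764 FPKM (H24h) and 0.42 ± 0.165 FPKM (R3h). For both, every H12h library lay above every library of the other groups. Tpi1b averaged 9.1 ± 2.55 FPKM (N), 10.2 ± 2.08 FPKM (H3h), 59 ± 17.5 FPKM (H12h), 49.5 ± 9.9 FPKM (H24h) and 90 ± 12.8 FPKM (R3h), so that its H12h and H24h values overlapped. Differences from groups other than H3h were not tested here.

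**Figure D4:**
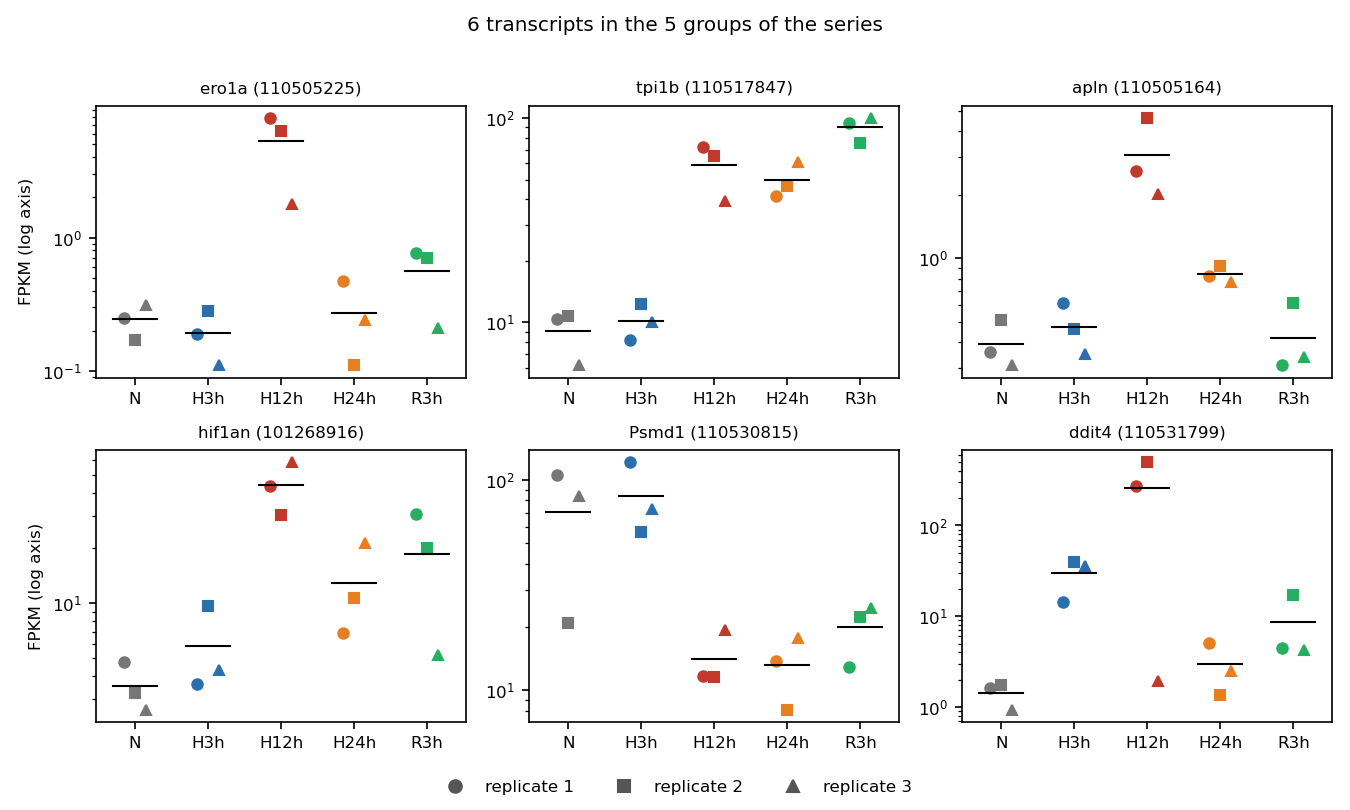
FPKM on log axes of 6 transcripts in each library of the groups N, H3h, H12h, H24h and R3h, with marker shapes for the replicates and a black line at the group mean. The H12h values of ero1a (1.79 to 7.85 FPKM) and apln (2.01 to 4.6 FPKM) lie above those of every other group, tpi1b is at 39.13 to 72.24 FPKM in H12h and 41.64 to 60.63 FPKM in H24h, and ddit4 is at 1.96 FPKM in H12h replicate 3 against 271.08 and 496.62 FPKM in H12h replicates 1 and 2.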

How the data were processed

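The deposited table holds, per the file headers, raw read counts per gene and FPKM computed by the authors for 34965 genes in 15 libraries. The submitters' processing notes name Bowtie2 2.2.8 and TopHat2 2.1.1; no source used here gives the genome build, annotation, counting tool or use of strand, so coordinates are the table's own. Genes averaging 0.5 FPKM or more across the 15 libraries entered a test on counts with edgeR 4.0.16 (R 4.3.3): TMM scaling, 5 group means, quasi-likelihood F test of H12h minus H3h, Benjamini-Hochberg adjustment over 17502 genes and a threshold of 0.05. In each library 99.02% or more of counts fell on these genes. The SE is approximate, the absolute log2 fold change over the root of F. TMM-scaled FPKM is FPKM divided by the TMM factor. Alternatives used DESeq2 1.42.0 and limma 3.58.1 with a pseudocount of 1. The procedure was also run on simulated counts, and the outcome is not reported here. No library was simulated to stand apart from its group. That run therefore does not cover the dependence on H12h replicate 3 and R3h replicate 3.

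Of the identifiers, 31271 matched the RefSeq table of the USDA_OmykA_1.1 assembly, used for symbols where the deposited table had none. Genes were named by rule: 15 per direction with the largest fold changes among called genes, filled up by smallest p, with a mean of at least 5 FPKM in the higher group and FPKM that did not overlap; the 3 members with the smallest p of each of 47 lists; and a set of well known genes, of which apoa1 and hamp had no match. Not all of them are printed, and some are not reported here. Members, lists and rules were chosen with earlier results of these data known, and no count over a list is independent support.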

Additional observations from a re-analysis of the deposited data

How the results depend on the processing

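The number of genes called moved with the libraries and the tool. Against 3 with all 15 libraries, leaving out libraries gave 0 to 1171 genes: 0 without H12h replicate 1 or 2 or any H3h library, 163 without R3h replicate 3, 255 without H12h replicate 3, and 1171 without both of those, an alternative added after seeing the data. The fit of 12 libraries without the R3h group called 20, the 6 libraries alone 2, none of them among the 3, the DESeq2 Wald test 802, limma on log2(FPKM + 1) 7 and limma-voom with library weights 3491. Without a filter on low values 18 were called, with a mean FPKM of at least 5 only 1, and with no scaling beyond library size, also added later, 0 (4216 at an unadjusted p below 0.05). With DESeq2 size factors or upper-quartile factors it was 3. The cause of these shifts was not tested. The shared replicate numbers gave no sign of pairing. Correlations of deviations were -0.045, 0.0639 and 0.00737 for like numbers and -0.117 to 0.113 for unlike numbers. With 3 libraries a group these values cannot exclude a pairing. A fit with a replicate block called 2.

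Over the 19 alternatives, the medians of HIF targets, complement, acute-phase proteins, coagulation, gluconeogenesis, cytosolic ribosomal proteins, proteasome, tubulins, tRNA synthetases and ribosome biogenesis kept their sign. Not all genes named by rule were followed through the alternatives. Among those that were, the sign turned for 11, none near the threshold. In limma on log2(FPKM + 1) the log2 fold change was -0.6 for PCK1, -0.09 for G6PC, -0.55 for Klf9, -0.46 for DUSP1, -0.96 for junb, -0.43 for MYC and -0.44 for EGLN2 (110503496). With no scaling beyond library size it was -0.5 for junb, -0.49 for MYC and -0.62 for EGLN2. In limma-voom it was 0.07 for CRY1 (110494045), 0.4 for fos, 0.09 for hspa5 and 0.1 for cited2 (110529621). MYC was at -0.03 with the replicate block, and EGLN2 at -0.02 with upper-quartile factors and -0.13 with the stricter filter. Leaving out libraries gave -0.81 to 0.1 for CRY1, -2.26 to 0.94 for fos, -0.61 to 0.74 for junb, -0.12 to 0.51 for MYC, -0.69 to 0.65 for hspa5, -0.22 to 0.45 for EGLN2 and -0.42 to 0.13 for cited2. With 3 libraries a group, changes smaller than the spread could not be detected.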

Other observations

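Some lipid and bile acid genes outside the comparisons above had positive fold changes without passing the test. Nr0b2, a nuclear receptor that represses bile acid synthesis, has several copies. Copy 110489598 was at 3.64, 0.68 and 1.06 FPKM in H12h libraries and at 0.23, 0 and 0.16 FPKM in H3h libraries (4.31 ± 0.95, adjusted p = 0.11 by edgeR's quasi-likelihood test). Copy 110496393 was at 1.35, 2.2 and 4.72 FPKM in H12h and at 0.1, 0 and 0.18 FPKM in H3h (5.32 ± 1.58, adjusted p = 0.17). VLDLR (110509017), a lipoprotein receptor, was at 915.46, 1200.24 and 857.46 FPKM in H12h and at 212.7, 352.29 and 259.28 FPKM in H3h (2.41 ± 0.76, adjusted p = 0.18). Groups did not overlap for these genes, and none was called. Another lipid gene went the other way. ACSL1 (110504725), a long-chain fatty acid CoA ligase, was at 0.04, 0.05 and 0.08 FPKM in H12h and at 1.56, 0.56 and 1.5 FPKM in H3h. Its log2 fold change was -3.79 (adjusted p = 0.07), and its groups did not overlap. ACSL1 passed as lower without R3h replicate 3 (adjusted p = 0.036) and without H12h replicate 3 (adjusted p = 0.039).

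On chromosome 10, 3 genes lying close together had a like pattern, noticed after their values had been seen. CHRDL2 (41486645 to 41496183) was at 16.23, 15.23 and 5.61 FPKM in H12h libraries and at 4.51, 3.48 and 4 FPKM in H3h libraries. POLD3 (41505503 to 41517475), a DNA polymerase subunit, was at 35.12, 56.43 and 6.78 FPKM in H12h and at 3.92, 4.79 and 5.37 FPKM in H3h. NEU3 (41525679 to 41528350), a sialidase, was at 2.47, 2.82 and 0.4 FPKM in H12h and at 0.16, 0.22 and 0.28 FPKM in H3h. In each, H12h replicate 3 lay close to the H3h libraries. Their adjusted p-values were 0.088, 0.07 and 0.07.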
